A study of Mus musculus with 26 samples.

Results

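Transcripts of 8 cation channels of the transient receptor potential (TRP) family were followed in the choroid plexus (ChP) of the 4th ventricle of adult male mice. The genes were fixed by symbol, as Trpm3, Trpm4, Trpm7, Trpv4, Trpc1, Trpv2, Pkd2 and Mcoln3, and all 8 were among the 55416 genes listed and among the 13697 with a mean of at least 1 CPM (counts scaled to a common library size) in both main groups, which were tested. They were chosen with earlier results of these data known, so that counts of members set beside all genes are descriptions. The control group (Ctrl) held 12 C57Bl6J mice with sham surgery, and the lesioned group (SCNx) held 12 C57Bl6J mice with the suprachiasmatic nucleus (SCN), the master clock of the brain, destroyed. Both groups were kept in constant darkness after a week in a light and dark cycle, and 1 mouse per group was killed every 4 h from circadian time (CT) 0 to CT44, where CT0 is the hour at which the lights would have come on, so that each mouse was a time point of its own. A further 2 mice of the genotype FoxJ1-ERT2-Cre+/-; Bmal1fl/fl, fed tamoxifen (KO), were killed in a light and dark cycle, 1 at ZT7 and 1 at ZT18, hours counted from lights on. Their Cre is driven by Foxj1, a gene of cells with motile cilia, and recombination was tested by the authors in liver. KO tissue was laser-captured from frozen sections and sequenced with a kit for small amounts of total RNA, while Ctrl and SCNx tissue was dissected fresh and sequenced from poly(A) RNA, and the KO mice were older and kept at another institute, so that genotype, age, housing, kit, dissection and lighting cannot be told apart.

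TRP channels are tetramers of membrane-spanning subunits that pass cations, in most cases calcium among them, when they are opened by temperature, osmotic swelling, lipids, phosphoinositides or calcium itself. They are grouped by sequence into families named after a founding member, among them the melastatin (Trpm), vanilloid (Trpv), canonical (Trpc), polycystin (Pkd) and mucolipin (Mcoln) families. In ChP, an epithelium that secretes cerebrospinal fluid, Trpv4 is known as an osmosensitive calcium channel linked to fluid secretion, and Trpm3 as one of the most abundant channel transcripts and the host gene of a microRNA, miR-204.

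The deposited libraries of Ctrl and SCNx held between 38751162 and 49527614 counts each, and those of KO held 17425176 and 18059213. All 10 epithelial markers of ChP (Ttr, Folr1, Kl, Otx2, Aqp1, Kcne2, Slc4a5, Clic6, Enpp2 and Prlr) were tested, and they summed to between 105600 and 167134 CPM per library of Ctrl and SCNx. Ctrl CT4 and SCNx CT32 stood apart by neuronal markers (328 and 345 CPM summed over 9 genes, with medians of 17.3 in Ctrl and 15.8 in SCNx), and Ctrl CT16 and SCNx CT0 by liver markers (1997 and 11064 CPM summed over 8 genes, with medians of 0.897 and 2.72). SCNx CT44 stood apart by blood markers (6642 CPM summed over 5 genes, with a median of 539 in SCNx). In whole tissue, fewer cells of a type and less RNA per cell cannot be told apart.

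Stretches before the transcription starts are shown for Trpm3 and Trpv4, the most abundant members and both rhythmic in Ctrl, and for Trpm7, the member with an E-box, together with the microRNA that lies inside Trpm3. They come from RefSeq on GRCm38.p6, an older build than that of the counts, and each is the 250 bases up to a start, read 5′ to 3′ on the strand of the gene. RefSeq gave windows for 7 of the 8 members (10 windows, of which Trpm3 had 2), and none was at hand for Trpm4. Capitals mark matches to the E-box CACGTG, the D-box TTATGTAA or the half-site AGGTCA of ROR receptors, which are short motifs of circadian transcription factors searched on both strands, and in the microRNA they mark the seed, bases 2 to 8.
Trpm3, first start, chr19:22138796-22139045, plus strand: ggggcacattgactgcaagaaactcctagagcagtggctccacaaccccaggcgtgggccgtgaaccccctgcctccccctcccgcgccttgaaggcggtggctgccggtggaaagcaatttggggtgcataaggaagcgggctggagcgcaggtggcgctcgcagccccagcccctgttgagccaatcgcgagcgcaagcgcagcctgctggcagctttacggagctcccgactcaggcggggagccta
Trpm3, second start, chr19:22447958-22448207, plus strand: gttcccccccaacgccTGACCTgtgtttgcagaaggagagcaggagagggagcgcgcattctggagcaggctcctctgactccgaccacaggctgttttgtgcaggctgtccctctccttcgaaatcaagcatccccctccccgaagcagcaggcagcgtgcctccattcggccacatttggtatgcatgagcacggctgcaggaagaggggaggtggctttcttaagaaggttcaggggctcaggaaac
Trpv4, chr5:114658422-114658671, minus strand: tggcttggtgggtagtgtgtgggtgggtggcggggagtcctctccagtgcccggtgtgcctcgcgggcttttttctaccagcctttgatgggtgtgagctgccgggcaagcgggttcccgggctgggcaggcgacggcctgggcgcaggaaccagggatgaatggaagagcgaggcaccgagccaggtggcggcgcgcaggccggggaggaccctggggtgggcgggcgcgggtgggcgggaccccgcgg
Trpm7, chr2:126876262-126876511, minus strand: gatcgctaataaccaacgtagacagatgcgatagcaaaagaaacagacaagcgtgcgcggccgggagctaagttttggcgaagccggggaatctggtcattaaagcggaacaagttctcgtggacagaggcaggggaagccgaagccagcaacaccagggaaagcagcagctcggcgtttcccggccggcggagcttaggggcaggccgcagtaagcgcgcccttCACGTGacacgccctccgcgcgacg
mmu-miR-204-5p, chr19:22750610-22750631, plus strand: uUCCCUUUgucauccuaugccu

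The second window of Trpm3 held the ROR half-site on the other strand, at position -234 from the start, and neither the first window of Trpm3 nor that of Trpv4 held any of the motifs. The E-box, a palindrome, was found in 1 of the 10 member windows, in Trpm7 at position -25, against 6.02% of 32851 windows of all genes of the same length (250 bases before to 50 after a start). The ROR half-site was found in 2 member windows, 1 of Trpm3 and 1 of Pkd2, against 14.02% of all windows, and the D-box in 0, against 0.819%. The hairpin of miR-204 lies within the gene body of Trpm3 and on its strand, and shares 0 bases with annotated exons of Trpm3. The row of Mir204 was at 0 counts in all libraries, and kits for poly(A) RNA are not made to capture a mature microRNA.

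The TRP transcripts of ChP differed by orders of magnitude in level, and Trpm3 and Trpv4 made up most of them. Levels of different genes were compared as CPM per kb of annotated exon, a mean over 12 libraries with its SD. The length is that of all annotated exons of a gene on an older build, not of the transcripts present here. Order, ranks and shares rest on this length, and its error is not in the SD or the ranges. Trpm3, a calcium-permeable channel opened by heat and by the steroid pregnenolone sulfate, stood at 195 ± 27.2 CPM per kb in Ctrl and 202 ± 23.3 in SCNx, and ranked 109th in Ctrl and 107th in SCNx among 13675 tested genes with a length. Trpv4 stood at 90.6 ± 12.0 CPM per kb in Ctrl and 82.9 ± 8.87 in SCNx, and its highest Ctrl library (107) was below the lowest of Trpm3 (142). Of the summed level of all 28 TRP genes, Trpm3 took a median of 59.6% in Ctrl (49.7% to 65.7%) and 63.02% in SCNx (56.4% to 64.5%), and Trpv4 took 26.7% (22.01% to 35.9%) and 24.4% (21.3% to 30.9%).

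Trpm7 and Pkd2 formed the next step of the order. Trpm7, a channel for magnesium, zinc and calcium fused to a protein kinase, stood at 15.1 ± 1.54 CPM per kb in Ctrl, and Pkd2, the channel-forming polycystin of primary cilia and the endoplasmic reticulum, at 11.8 ± 0.968. Their ranges, which hold the spread between libraries and not the error of the length, did not overlap in Ctrl (13.4 to 18.4 against 10.1 to 13.1). They did in SCNx (12.2 to 17.9 against 9.43 to 12.8). Trpc1, a subunit that joins other Trpc subunits in channels coupled to receptors and calcium stores, stood at 3.85 ± 0.251. Mcoln3, a channel of endosomes and lysosomes, stood at 2.39 ± 0.407, Trpm4, a channel for sodium and potassium that calcium opens from inside the cell, at 1.38 ± 0.218, and Trpv2, a channel known from neurons and immune cells, at 0.783 ± 0.157. The ranges of Mcoln3 and Trpm4 overlapped in Ctrl, as did those of Trpm4 and Trpv2. Of the other 20 TRP genes, 4 were tested, the highest of them Mcoln1 at 4.79 ± 0.271 CPM per kb in Ctrl, and none of the 16 untested genes exceeded a mean of 1.24 CPM in either group.

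**Figure D1:**
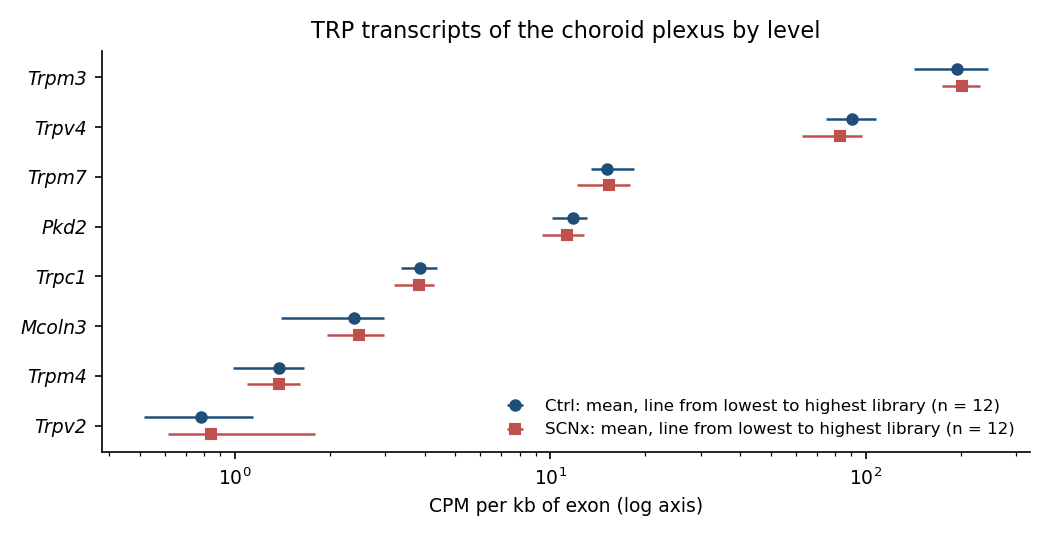
Levels of the 8 members on a log axis as CPM per kb of exon, with the mean (circles for Ctrl, squares for SCNx) and a line from the lowest to the highest of 12 libraries per group. Trpm3 (195 in Ctrl) and Trpv4 (90.6) stand apart from the others, of which Trpm7 is the highest at 15.1.

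The comparison of SCNx with Ctrl asked whether loss of the SCN shifted the mean level of these transcripts over the 2 days. No member differed between the groups by the quasi-likelihood test of edgeR, adjusted after Benjamini and Hochberg over all tested genes, of which 0% were called. In this model of group means alone, 0 of 8 members had an unadjusted p under 0.05, against 9.37% of all genes. Over all genes, DESeq2 called 14 and limma-trend 0, none of them a member. The median log2 difference of the members was 0.0079, beside 0.011 over all tested genes.

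Trpm3 ranged from 3480 CPM (CT44) through a median of 4640 to 5937 (CT8) in Ctrl, and from 4260 (CT40) through 4814 to 5631 (CT28) in SCNx. The SCNx range lay within that of Ctrl. The log2 difference, SCNx minus Ctrl, was 0.05 ± 0.08 (SE; adjusted p = 0.857), with a 95% interval from -0.10 to 0.21. Trpv4 ranged from 304 (CT12) through 352 to 438 CPM (CT24) in Ctrl and from 256 (CT32) through 337 to 396 (CT36) in SCNx. The ranges overlapped, and the log2 difference of -0.13 ± 0.07 (interval -0.27 to 0.02), the largest in size among the members, missed the threshold both before and after adjustment (unadjusted p = 0.0793, adjusted p = 0.581). With the 24 h rhythm of each group in the edgeR model, the difference of Trpv4 was -0.12 (unadjusted p = 0.0285, adjusted p = 0.407).

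Trpm4 ranged from 10.7 (CT44) through 14.8 to 17.9 CPM (CT8) in Ctrl and from 11.8 (CT16) through 15.1 to 17.5 (CT44) in SCNx, and its interval of the log2 difference ran from -0.16 to 0.16 (adjusted p = 0.998). Trpm7 ranged from 152 (CT40) through 169 to 208 CPM (CT8) in Ctrl and from 138 (CT0) through 175 to 203 (CT28) in SCNx, with an interval from -0.11 to 0.14 (adjusted p = 0.959). Pkd2 ranged from 103 (CT36) through 117 to 133 CPM (CT0) in Ctrl and from 95.9 (CT0) through 116 to 130 (CT20) in SCNx, with an interval from -0.16 to 0.04 (adjusted p = 0.706). The groups overlapped for each of these genes, and the lowest SCNx library of Trpm7 and Pkd2, as of Trpc1, was CT0, the one with the most liver transcripts. The highest SCNx library of Trpm4, CT44, was the one with the most blood transcripts.

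Trpc1 ranged from 27.1 (CT12) through 31.0 to 35.1 CPM (CT0) in Ctrl and from 25.7 (CT0) through 31.1 to 34.3 (CT24) in SCNx, with an interval of the log2 difference from -0.10 to 0.08 (adjusted p = 0.974). Mcoln3 ranged from 4.85 (CT8) through 8.64 to 10.3 CPM (CT12) in Ctrl and from 6.78 (CT32) through 8.46 to 10.3 (CT4) in SCNx, with an interval from -0.14 to 0.24 (adjusted p = 0.909). Trpv2 ranged from 2.31 (CT40) through 3.53 to 5.11 CPM (CT4) in Ctrl and from 2.76 (CT20) through 3.43 to 8.03 (CT32) in SCNx. The highest Trpv2 library of each group was the one rich in neuronal transcripts. Its log2 difference was 0.11 ± 0.15 (interval -0.20 to 0.42, adjusted p = 0.850), 0.0089 without Ctrl CT4 and SCNx CT32 and -0.05 without SCNx CT32 alone.

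Rhythms were tested as a 24 h cosine curve per group. In Ctrl, 3 of 8 members were rhythmic, Trpm3, Trpm4 and Trpv4, against 10.7% of all tested genes by the same test. Trpm3 and Trpm4 peaked in the later part of the subjective day, while Trpv4 peaked near the end of the subjective night, 14.4 h after Trpm3. The amplitudes were small, with a peak 1.36 to 1.48 times the trough. Leaving out Ctrl CT16 and SCNx CT0 gave 4 rhythmic members, with Trpm7 added, and leaving out Ctrl CT4 and SCNx CT32 gave 3.

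Trpm3 in Ctrl was highest at CT8 (5937 CPM) in the first cycle and at CT32 (5579) in the second, and lowest at CT16 (4236) and CT44 (3480). High and low thus fell at the same hours of both days within 4 h, and the same time of day differed between the cycles by a median of 0.08 on the log2 scale. The fitted amplitude was 0.25 ± 0.040 on the log2 scale with a peak at CT 7.17, a peak-to-trough fold of 1.41, and 81.6% of the variance on the curve (adjusted p = 0.00573). Fitted on each cycle alone, the amplitude was 0.23 and 0.27 and the peak at CT 7.47 and 6.90.

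Trpm4 in Ctrl was also highest at CT8 (17.9 CPM) and CT32 (17.8) and lowest at CT16 (12.4) and CT44 (10.7). Its amplitude was 0.28 ± 0.049 with a peak at CT 7.65, a fold of 1.48 and 79.2% of the variance on the curve (adjusted p = 0.00753). Both Trpm transcripts, far apart in level, rose and fell over the same hours, 0.480 h apart in their fitted peaks. Over the 12 Ctrl libraries, log2 CPM of Trpm3 and Trpm4 correlated with Pearson's r = 0.90 and Spearman's rho = 0.87 (r = 0.82 without the 2 libraries farthest from the median), and over the 12 SCNx libraries with r = 0.43 and rho = 0.44. These are descriptions over libraries in time order that share size factors and cell composition.

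Trpv4 in Ctrl ran the other way. It was highest at CT20 (421 CPM) in the first cycle and CT24 (438) in the second and lowest at CT12 (304) and CT36 (313). Its amplitude was 0.22 ± 0.043 with a peak at CT 21.6, a fold of 1.36 and 74.5% of the variance on the curve (adjusted p = 0.0198). The 2 cycles taken alone gave amplitudes of 0.23 and 0.23 and peaks at CT 22.6 and 20.6. Against Trpm4, log2 CPM of Trpv4 had r = -0.64 and rho = -0.57 in Ctrl (r = -0.56 without the 2 farthest libraries) and r = -0.0025 and rho = 0.21 in SCNx. Against Trpm3, the values were weaker in Ctrl, r = -0.56 and rho = -0.42 (r = -0.46 without the 2 farthest libraries). In SCNx they were r = -0.085 and rho = -0.18.

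Without the minimum level, which raised the number of genes tested to 40287, Trpm4 alone was called (adjusted p = 0.0296), with 0.219 for Trpm3 and 0.0510 for Trpv4. The unadjusted p of Trpm3 also rose, from 2.11e-04 to 0.0123, at an amplitude of 0.25. A rank test of the eJTK type called Trpm3 (adjusted p = 0.0118) and Trpm4 (0.0189) but not Trpv4 (0.138), against 6.76% of all genes. Fibroblast and mural markers also moved over the day in Ctrl, with 3 of 5 and 1 of 5 genes called rhythmic and summed levels from 346 to 487 CPM and from 144 to 386 CPM, and 3 of 10 epithelial markers were called too (Aqp1, Kcne2 and Prlr). Of 8 liver markers, 7 were called rhythmic in Ctrl and 5 differed in rhythm between the groups, with a summed level of 0.219 CPM at the lowest Ctrl library and 1997 at CT16. The part of these markers in the rhythms of the TRP genes was not tested, other than by leaving out the libraries named above.

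**Figure D2:**
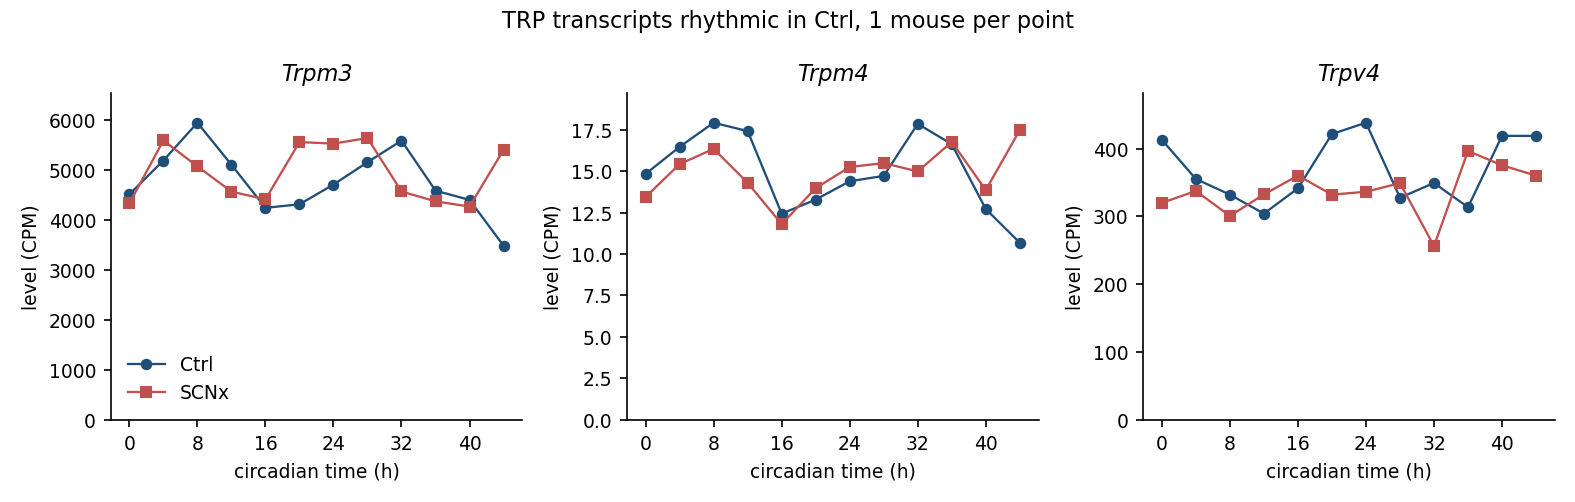
Level in CPM against circadian time in hours for the 3 members rhythmic in Ctrl, with 1 mouse per point (circles for Ctrl, squares for SCNx) and lines joining successive mice of a group. Trpm3 and Trpm4 of Ctrl are highest at CT8 and CT32, and Trpv4 of Ctrl at CT20 and CT24. In SCNx, Trpm4 has the same high and low hours (CT8 and CT16) in the first cycle but not in the second.

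The other 5 members were not called in Ctrl. Trpm7 peaked at CT 6.65, close to Trpm3, with an amplitude of 0.15 ± 0.042 (adjusted p = 0.165, unadjusted p = 0.0359), and was highest at CT8 (208 CPM) and CT32 (192). Without SCNx CT0 it passed (adjusted p = 0.0368), a library of the other group that enters through the shared estimate of spread. Pkd2 had a fitted peak at CT 21.2, close to Trpv4, with an amplitude of 0.12 ± 0.036 (adjusted p = 0.185, unadjusted p = 0.0434). Trpv2 had a peak at CT 6.00 with an amplitude of 0.29 ± 0.085, as large as that of Trpm4, and a wide error (adjusted p = 0.274, and 0.0427 without SCNx CT32).

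Trpc1 had the lowest amplitude, 0.07 ± 0.036 (adjusted p = 0.555), and Mcoln3 had 0.12 ± 0.12 (adjusted p = 0.684), with its low point at CT8 (4.85 CPM) in the first cycle and none like it at CT32 (8.80). The median amplitude over the members was 0.18, beside 0.11 over all tested genes. Unadjusted, 5 of 8 members had a p under 0.05 for a rhythm in Ctrl, against 24.8% of all genes.

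**Figure D3:**
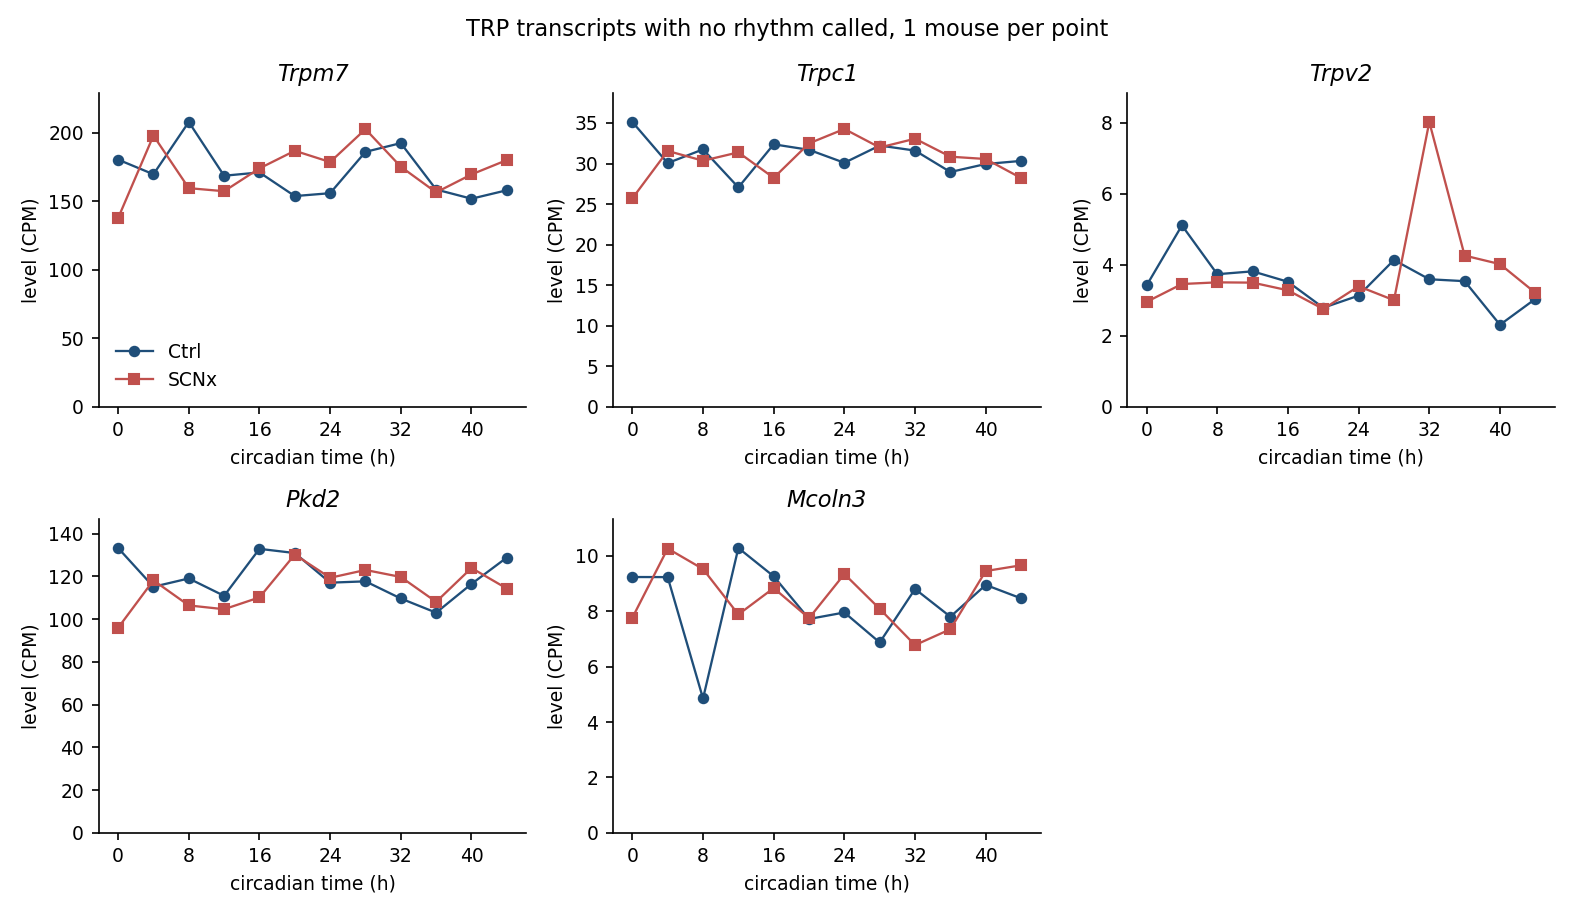
Level in CPM against circadian time in hours for the 5 members with no rhythm called, with 1 mouse per point (circles for Ctrl, squares for SCNx) and lines joining successive mice of a group. Trpv2 has its highest point at 8.03 in SCNx CT32, Trpm7 of Ctrl is highest at CT8 and CT32, and Trpc1 stays between 25.7 and 35.1.

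A plainer view set the 4 Ctrl libraries of the subjective day around the Trpm3 peak (CT4, CT8, CT28 and CT32) beside the 4 of the night (CT16, CT20, CT40 and CT44). The windows were placed around the fitted Trpm3 peak, with earlier results of these data known. Separation of Trpm3, and of Trpm4 and Trpv2 with their like fitted peaks (CT 7.65 and CT 6.00), thus follows from the choice. The counts are a description. In Ctrl, the day libraries of 3 members lay wholly above the night libraries, against 6.37% of all tested genes, and those of 0 members wholly below, against 6.44%. For Trpm3 the day ran from 5148 to 5937 CPM and the night from 3480 to 4394. For Trpm4 the day ran from 14.7 to 17.9 and the night from 10.7 to 13.3, and for Trpv2 from 3.59 to 5.11 and from 2.31 to 3.52. In SCNx the windows of all 8 members overlapped, where 2.04% of all genes lay above and 2.01% below without overlap, and those of Trpm3 ran from 4563 to 5631 and from 4260 to 5549.

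In SCNx, 0 of 8 members were rhythmic, and 0% of all tested genes were called by edgeR's quasi-likelihood test. Unadjusted, 2 members (Trpm3 and Trpv2) had a p under 0.05, against 14.8% of all genes. DESeq2 called 432 genes and the rank test 0, again with no member among them. The amplitude was lower in SCNx than in Ctrl for 7 of 8 members, all but Trpv2, and for 55.3% of all tested genes, and the median amplitude of the members was 0.08, beside 0.09 over all genes.

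Trpm3 in SCNx had an amplitude of 0.15 ± 0.056 (adjusted p = 0.237, unadjusted p = 0.0188), with highs at CT4 (5582 CPM) in the first cycle and CT28 (5631) in the second and lows at CT0 (4327) and CT40 (4260). The cycles taken alone gave 0.08 and 0.22. The low at CT0 fell in the library rich in liver transcripts. Without SCNx CT0 and Ctrl CT16, the amplitude of Trpm3 was 0.21 in SCNx, beside 0.25 in Ctrl. The SCNx rhythm then had an unadjusted p of 2.18e-04 and was still not called after adjustment. The lower amplitude of Trpm3 in SCNx thus rested in part on these libraries. With all libraries, the fitted peak of Trpm3 in SCNx was at CT 1.37, hours before that of Ctrl at CT 7.17. SCNx was also high at CT20 (5549 CPM), CT24 (5519) and CT44 (5396), where Ctrl stood at 4306, 4701 and 3480. Trpm4 in SCNx had 0.07 ± 0.064 (adjusted p = 0.688), with lows at CT16 (11.8 CPM) and CT40 (13.9). Trpv4 in SCNx had 0.11 ± 0.060 (adjusted p = 0.423), with its lowest library at CT32 (256 CPM), the neuron-rich one, and its highest at the next time point (396). The higher amplitude of Trpv2 in SCNx, 0.38 ± 0.15 (adjusted p = 0.233), fell to 0.17 without CT32. Trpm7, Trpc1, Pkd2 and Mcoln3 had amplitudes between 0.04 and 0.08. Without CT0, the library with the most liver transcripts, that of Trpm7 was 0.15 in place of 0.07 (adjusted p = 0.235), as large as in Ctrl, and that of Pkd2 0.09 in place of 0.04 (adjusted p = 0.379). With 1 library left out, the order of the 2 groups also turned for Trpc1, Mcoln3 or Trpv2 in some fits.

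A rhythm called in Ctrl and not in SCNx is not shown to differ between them, so the curves were compared directly. By edgeR's quasi-likelihood test of the difference, 0 of 8 members passed, against 2.12% of all tested genes, and unadjusted 3 (Trpm3, Trpm4 and Trpv4) had a p under 0.05, against 15.1%. Trpm3 came nearest, with a difference of the 2 curves of 0.29 on the log2 scale and an adjusted p of 0.0677 (unadjusted p = 0.00185). The difference of the curves takes in the time of the peak as well as the amplitude. For Trpm3 it was larger than the amplitude of either group (0.25 in Ctrl and 0.15 in SCNx). Without SCNx CT0 and Ctrl CT16, it was 0.34. Trpm3 passed without SCNx CT0 (adjusted p = 0.00601), without that library and Ctrl CT16 (0.00806), and with DESeq2's likelihood ratio test (0.00707). Over all alternatives its adjusted p ran from 0.00601 to 0.501. For Trpm4 the difference was 0.22 (adjusted p = 0.295), and for Trpv4 0.19 (adjusted p = 0.321).

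**Figure D4:**
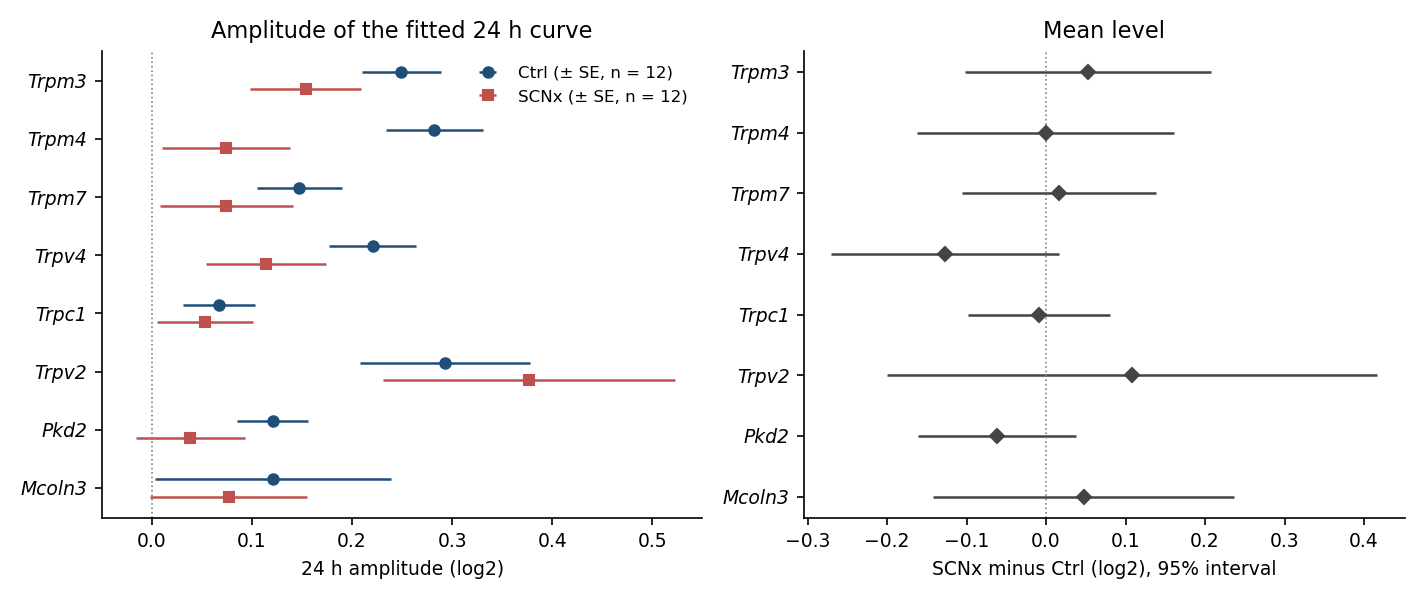
Left, the 24 h amplitude on the log2 scale of the 8 members in Ctrl (circles) and SCNx (squares), with the SE over 12 libraries per group. Right, the log2 difference in mean level, SCNx minus Ctrl, with its 95% interval. All 8 intervals of the level include 0, and the amplitude is lower in SCNx for all but Trpv2.

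In the KO libraries, the question was where the TRP transcripts stood in mice meant to lack Bmal1 in ChP epithelium. With 1 mouse per time there was no test. The targeted gene itself, Arntl (Bmal1), stood at 10.6 CPM at ZT7 and 9.36 at ZT18, within the Ctrl range of 2.01 to 39.4, and in Ctrl it averaged 2.76 at CT8 and CT32 and 18.8 at CT16, CT20, CT40 and CT44. A count over the whole gene does not check the removal of a part of it. The epithelial markers summed to 86871 and 82521 CPM in KO, below every Ctrl library (143055 and above), and the neuronal (225 and 335), astrocyte (743 and 866) and oligodendrocyte markers (307 and 446) were above the Ctrl medians (17.3, 147 and 74.2), and their part in the KO values was not tested.

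Trpm3 stood at 4064 CPM at ZT7 and 4381 at ZT18, within the Ctrl range. The night to day ratio was 1.08 in KO, while in Ctrl the night libraries averaged 0.713 times those at CT8 and CT32. Trpm4 stood at 4.53 and 6.98 CPM and Trpv4 at 178 and 248, and both libraries of both genes lay below all 12 Ctrl libraries (from 10.7 and from 304 CPM). Over all tested genes, 41.5% lay below all Ctrl libraries in this way and 16.9% above. Mcoln3, at 11.1 and 13.2 CPM, lay above the Ctrl range (4.85 to 10.3).

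Trpm7 (173 and 163 CPM), Trpc1 (31.6 and 25.3), Trpv2 (1.49 and 3.82) and Pkd2 (92.8 and 111) did not have both KO libraries on 1 side of the Ctrl range. The median log2 difference, KO minus Ctrl, over all tested genes was -0.24 with a pseudocount of 1 CPM, and among these genes Trpm4 stood at percentile 5.12, Trpv4 at 18.2 and Trpm3 at 53.8. Trpm4 had a night to day ratio of 1.54 in KO and 0.686 in Ctrl, and Trpv4 1.39 and 1.17.

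**Figure D5:**
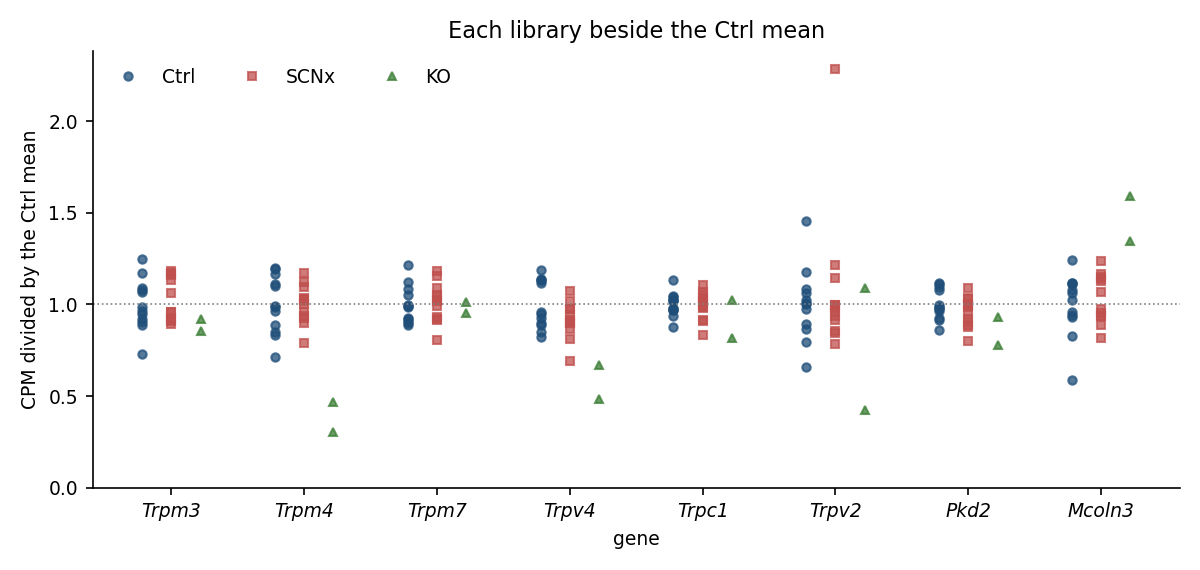
CPM of each library divided by the Ctrl mean of the same gene, for the 8 members, with 12 Ctrl (circles), 12 SCNx (squares) and 2 KO libraries (triangles). The KO points of Trpm4 and Trpv4 lie below all Ctrl points and those of Mcoln3 above, and the highest SCNx point of Trpv2 is CT32.

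Genes that work with these channels were counted by list, and each count of rhythmic genes in Ctrl stands against 10.7% of all tested genes, so that 1 or 2 of 12 genes is near that share. Of the 10 tested genes of magnesium transport, the list for Trpm7, 4 were rhythmic in Ctrl (Cnnm2, Magt1, Slc41a1 and Slc41a3), and Magt1 was the 1 gene of the pathway lists whose rhythm differed between the groups. Slc41a1, a magnesium carrier of the plasma membrane, stood at 100.2 ± 11.5 CPM in Ctrl with a peak at CT 7.97 and an amplitude of 0.21 ± 0.026 (adjusted p = 4.79e-04). Magt1, which serves magnesium uptake and N-glycosylation, stood at 102 ± 22.1 CPM with a peak at CT 21.4 and an amplitude of 0.40 ± 0.055 (adjusted p = 1.50e-04), and 0.11 in SCNx (adjusted p of the difference = 0.0412, a call lost in 19 of 24 fits without 1 library). Slc41a3, a relative of Slc41a1, peaked at CT 7.99 (amplitude 0.31, adjusted p = 0.0151), and Cnnm2 at CT 18.7 (0.17, adjusted p = 0.0398). None of the 10 passed in SCNx, where 0% of all tested genes did. The median amplitude of the list was 0.07 in SCNx and 0.10 in Ctrl, beside 0.09 and 0.11 over all tested genes. The amplitude was lower in SCNx for 6 of the 10, near the 55.3% of all tested genes.

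Of the 8 genes of endolysosomal channels and the PIKFYVE complex, which makes the lipid that opens Mcoln channels, 2 were rhythmic in Ctrl. These were the lysosomal potassium channel Tmem175 (peak at CT 8.13, amplitude 0.14, adjusted p = 0.0273) and the endolysosomal cation channel Tpcn2 (peak at CT 8.80, amplitude 0.29, adjusted p = 0.0106). Of 12 tested genes of calcium-activated channels and the pathway of the NKCC1 cotransporter, the list for Trpm4 and Trpv4, 2 were rhythmic. The water channel Aqp1, at 443 ± 89.0 CPM, peaked at CT 7.07 with an amplitude of 0.37 ± 0.053 (adjusted p = 0.00539), within an hour of Trpm3 and Trpm4. The paper, with other rhythm algorithms and another threshold, reports no circadian rhythm of Aqp1 mRNA in these mice. The kinase Wnk4 peaked at CT 13.1 (0.35 ± 0.10, adjusted p = 0.0188). Of 12 genes of phospholipase C and phosphoinositide synthesis, 1 was rhythmic, Plcd1 (peak at CT 9.18, amplitude 0.17, adjusted p = 0.0306). The 14 tested calcium pumps, exchangers and release channels, the 5 genes of store-operated calcium entry, the 2 tested polycystin partners (Pkd1 and Bicc1) and the 4 other TRP genes had 0 rhythmic genes. With 1 of the 24 libraries left out in turn, the rhythm in Ctrl lost its call in 8 fits for Cnnm2, 5 for Plcd1, 4 for Tmem175, 2 for Wnk4 and 1 each for Slc41a3 and Tpcn2. These genes also lost it by the rank test and, except Wnk4, with no minimum level, while Slc41a1, Magt1 and Aqp1 kept it in all fits run.

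No gene of these lists differed in mean level between SCNx and Ctrl after adjustment. Unadjusted, 4 of the 5 genes of store-operated entry (Orai1, Orai2, Orai3 and Stim2, named after their values were seen), which couple empty calcium stores to the plasma membrane, had a p under 0.05, all with a lower mean in SCNx and a list median of -0.10 on the log2 scale, against 9.37% of all genes. Among the other TRP genes, Mcoln1, the main lysosomal member of the family, named after its value was seen, stood at 36.2 ± 2.04 CPM in Ctrl and 32.9 ± 1.36 in SCNx, a log2 difference of -0.14 ± 0.03 (unadjusted p = 2.71e-04, adjusted p = 0.266).

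The genes whose log2 CPM ran most like Trpm3 over the 24 libraries of Ctrl and SCNx were Pdpr (Pearson's r = 0.88, Spearman's rho = 0.88), Usp6nl (0.87 and 0.83), Cep57 (0.83 and 0.87), Gm26684 (0.83 and 0.80) and Msi2 (0.82 and 0.83). Pdpr encodes the regulatory subunit of pyruvate dehydrogenase phosphatase, Usp6nl a GTPase-activating protein of Rab proteins, Cep57 a centrosomal protein and Msi2 an RNA-binding protein. Without the 2 libraries farthest from the Trpm3 median, r ran from 0.77 to 0.85. Within SCNx alone r ran from 0.73 to 0.88, and all 5 had their Ctrl peak between CT 6.84 and CT 8.58. The 5 genes were picked by r over these same libraries. A high r within SCNx and a like Ctrl peak largely follow from that choice. Msi2 was not called rhythmic in Ctrl (adjusted p = 0.0547). The libraries share size factors and cell composition, and these values are descriptions.

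Trpm3 overlaps 5 small or noncoding genes on GRCm38, 2 of which share exon bases with it on the other strand (Gm27151 and C330002G04Rik), and each had a mean under 1 CPM in both groups. The strand setting of the counting is not given in the sources used here, and at these levels the overlapping genes are small beside the Trpm3 count. No other member shares exon bases with another annotated gene.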

How the data were processed

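RNA of the ChP was sequenced in 12 Ctrl, 12 SCNx and 2 KO mice. The authors processed the reads with the nf-core/rnaseq pipeline on GRCm39, with cutadapt 3.4, STAR, SAMtools 1.16.1, StringTie 2.2.1 and Salmon 1.9.0 among the tools of the submitters' processing notes, and deposited estimated counts per gene, not normalized, which were rounded here. Genes with a mean of at least 1 CPM in Ctrl and in SCNx were tested with edgeR 4.0.16 (R 4.3.3), scaled by TMM. Levels were compared with a mean per group, and rhythms in 1 model in which each group had its mean and a curve of 24 h period. All p-values of genes are from edgeR's quasi-likelihood F test, two-sided for levels, with Benjamini-Hochberg adjustment over all tested genes and a threshold of 0.05 where no other test is given. SE of a level is that of the fit, and SE of an amplitude comes from the residuals of log2 CPM (prior count 1). CPM of Ctrl and SCNx is scaled by TMM and that of KO by its library total. The rank test compared log2 CPM with 132 curves against 200000 random orders. Levels per kb used the exon union of GENCODE M21 (GRCm38), matched by gene identifier.

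The members and the lists were chosen with earlier results of these data known. The named genes are the members, Arntl, list genes past a threshold (at most 3 per list and test) and the 5 genes most like Trpm3. Cnnm2, Mcoln1, the polycystin partners and the genes of store-operated entry fall outside this rule and were named after their values were seen. Alternatives were DESeq2 1.42.0, its size factors in edgeR, limma-trend (limma 3.58.1), other minimum levels, a linear trend, separate fits, the rank test and leaving out libraries. The fits were tested on simulated data. Nothing says more than that the libraries are separate mice, so that p-values measure the spread between mice and preparations together. The model of mean levels held no time of day, so that its p-values, SE and intervals also hold the change over the day. No library was imputed.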

Additional observations from a re-analysis of the deposited data

Results flagged for a closer look

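Magt1, a gene of magnesium uptake and N-glycosylation from the list for Trpm7, was the 1 gene of the pathway lists whose 24 h rhythm differed between Ctrl and SCNx in a test of the difference itself (edgeR's quasi-likelihood test, adjusted p = 0.0412). Its amplitude was 0.40 ± 0.055 on the log2 scale in Ctrl (n = 12, peak at CT 21.4) and 0.11 in SCNx (n = 12, adjusted p of the rhythm = 0.448). With 1 library left out at a time, the adjusted p ran from 0.0131 to 0.0966 and the call was lost in 19 of 24 fits, and it was also lost without Ctrl CT16 and SCNx CT0 and without Ctrl CT4 and SCNx CT32.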

How the results depend on the processing

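Of 1956 values of members and named pathway genes recomputed under alternatives, 1861 kept their side of the threshold and, for mean levels, their direction, 58 lost a call, 13 gained one and 24 changed sign. The values belong to 59 results, most of them not called in the main analysis, and only a called result can lose a call. The share kept thus says little about how stable the calls are. An amplitude has no sign, so that only a mean level could change it. The number of members with a different level was 0 and that rhythmic in SCNx was 0 under every alternative run. The number rhythmic in Ctrl was 1 with no minimum level, 2 by the rank test, 4 without Ctrl CT16 and SCNx CT0, 3 in the other settings, and between 3 and 4 with 1 library left out. The number whose rhythm differed was 1 without Ctrl CT16 and SCNx CT0, 1 by DESeq2's likelihood ratio test, and between 0 and 1 with 1 library left out (1 without SCNx CT0, Trpm3), against 0 in the main analysis. Over all genes, 1459 were rhythmic in Ctrl and 2223 without Ctrl CT4 and SCNx CT32, 0 in SCNx and 1384 with no minimum level, and 291 differed in rhythm, against 654 with no minimum level and 589 by DESeq2. The causes were not tested.

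The difference in level of Trpm4, at -0.00060 on the log2 scale, was 0.0083 without Ctrl CT4 and SCNx CT32, 0.0078 with circadian time as a replicate block, 0.012 with the rhythm in the model and 0.0092 by limma-trend, and Trpc1 was 0.018 without Ctrl CT16 and SCNx CT0. With 1 library left out, log2 differences ran from -0.037 to 0.027 for Trpm4, -0.0062 to 0.045 for Trpm7, -0.027 to 0.012 for Trpc1, -0.053 to 0.17 for Trpv2 and -0.0058 to 0.077 for Mcoln3. Mice of the same CT did not deviate together (r from -0.444 to 0.335, with 1 of 12 mice closest to its own time), which gave no ground to pair them. The r also takes in rhythms that differ between the groups and the libraries rich in liver or neuronal transcripts. It therefore cannot exclude that mice of a time point were handled together. The block by time, run for mean levels alone, left 0 genes called, as without it.

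Each time point of a group was 1 mouse, so that a rhythm rests on the repeat over 2 cycles. Depth limits the values of Trpv2, Mcoln3 and Trpm4 more than those of Trpm3. DESeq2 gave no adjusted p for the level of Trpv2, and a minimum of 5 CPM left Trpv2 and Slc41a3 untested.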
